A study of Mus musculus with 16 samples.

Results

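The genes described here encode steps by which noradrenaline and adrenaline act on heart muscle: adrenergic receptors, a G protein subunit, adenylyl cyclases, subunits of protein kinase A (PKA) and a receptor kinase. Of 9 genes chosen by symbol, 7 were measured (Adra1b, Gnai2, Adcy5, Adcy6, Prkaca, Prkar1a and Grk5), out of 18193 genes tested in all. Adrb1 and Adra1a were not analysed here, because no probe set was paired with either symbol alone in the annotation used. Each gene was read from 1 probe set, the one with the highest mean over the 16 arrays, and its other probe sets served as a check.

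RNA came from the ventricular myocardium of male mice aged 14 weeks on a CD1 background, with 1 expression array per sample and 4 arrays per group. The groups were A2AR KO mice given lipopolysaccharide (KO LPS), A2AR KO mice given saline (KO saline), wild-type littermates given LPS (WT LPS) and wild-type littermates given saline (WT saline). LPS from E. coli, a bacterial endotoxin that provokes systemic inflammation, was injected into the peritoneum at 20 mg/kg, and hearts were taken 24 h after treatment. The knockout line lacks the adenosine 2A receptor (A2AR), itself a cAMP-raising receptor; the labels describe no tissue-specific Cre or promoter, and the genotype rests on them, since the level of the targeted transcript is not reported here. Whether the 4 samples of a group came from separate animals is not stated, so the p-values measure the spread between these samples.

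In the heart, beta-adrenergic receptors act through the stimulatory G protein on adenylyl cyclase, which makes cAMP. cAMP releases the catalytic subunits of PKA from their regulatory subunits, and PKA then phosphorylates calcium-handling and contractile proteins, which raises the rate and force of the beat. Inhibitory G proteins restrain adenylyl cyclase, alpha1-adrenergic receptors act on phospholipase C instead, and receptor kinases such as GRK5 phosphorylate active receptors and so end their signalling.

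The deposited values are log2 expression values, on which 1 unit is a 2-fold difference. The array medians were 4.62 to 4.67, and 66.3% of the variance between arrays lay on the first principal component. Cardiomyocyte markers were high in all arrays, with means over 8 genes of 13.42 to 13.77 in KO LPS and 13.92 to 13.98 in KO saline hearts, and of 13.64 to 13.80 in WT LPS and 13.90 to 13.93 in WT saline hearts. The LPS and saline ranges did not overlap in either genotype, and 4 of the 8 markers were called lower in each. In whole tissue, fewer cells of a type and less RNA per cell cannot be told apart. Means of 5 neutrophil markers were 6.90 to 7.28 in KO LPS against 4.16 to 4.31 in KO saline hearts, and 6.29 to 6.95 in WT LPS against 3.97 to 4.20 in WT saline hearts. Markers of other cell types were also called lower in both genotypes: 5 of 7 for smooth muscle and pericytes, 3 of 4 for the atrium, 2 of 7 for fibroblasts and 2 of 4 for nerves and Schwann cells in each. Lower calls in KO and WT hearts numbered 4 and 2 of 7 for endothelium, 2 and 3 of 4 for adipocytes and 1 and 2 of 8 for skeletal muscle. Over all genes 14.7% were called lower in KO and 11.6% in WT hearts, and 11.4% and 9.28% higher, so the smallest of these marker counts lie near the background. The skeletal muscle mean was high in WT saline arrays 1 and 4 only (7.57 and 8.83). It was 6.07 and 5.99 in WT saline arrays 2 and 3, against 5.66 to 5.95 in WT LPS hearts. Macrophage markers moved both ways, with 2 of 7 higher in each genotype and 3 lower in KO and 2 lower in WT hearts, and 0 of 5 T and NK cell markers were called by limma. The part of these marker changes in the results below was not tested.

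The sequences before the transcription start are shown for the 3 genes that passed the test in both genotypes, the riser Grk5 and the fallers Adcy5 and Prkaca, so that the control regions of genes that moved in opposite directions can be set side by side. Each is the 250 bases before a start annotated by RefSeq on GRCm38.p6, written 5′ to 3′ on the gene's own strand, which is the plus strand for all 3. Prkaca has 2 annotated starts in the table, and the window of the upstream one is printed. The windows are chr19:60889499-60889748 for Grk5, chr16:35154614-35154863 for Adcy5 and chr8:83972728-83972977 for Prkaca. Capitals mark any match, on either strand, to the cAMP response element TGACGTCA, its core TGACG or the STAT-type motif TTCNNNGAA, or to an NF-kB-type motif. The full element contains the core, so a full match counts for both.
Grk5: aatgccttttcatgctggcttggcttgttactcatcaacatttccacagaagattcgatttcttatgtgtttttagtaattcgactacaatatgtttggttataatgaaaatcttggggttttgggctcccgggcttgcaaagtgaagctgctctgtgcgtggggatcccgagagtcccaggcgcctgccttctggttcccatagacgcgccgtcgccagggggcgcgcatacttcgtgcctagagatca
Adcy5: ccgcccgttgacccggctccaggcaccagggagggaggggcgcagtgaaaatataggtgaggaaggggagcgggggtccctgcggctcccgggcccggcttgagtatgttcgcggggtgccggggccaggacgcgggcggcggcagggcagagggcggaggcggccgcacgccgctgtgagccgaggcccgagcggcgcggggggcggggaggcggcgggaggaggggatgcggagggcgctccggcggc
Prkaca: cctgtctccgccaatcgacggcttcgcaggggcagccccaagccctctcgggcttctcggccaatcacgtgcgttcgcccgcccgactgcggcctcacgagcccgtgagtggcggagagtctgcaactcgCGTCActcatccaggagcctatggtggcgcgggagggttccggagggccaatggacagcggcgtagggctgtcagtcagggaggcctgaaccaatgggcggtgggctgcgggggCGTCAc
The Grk5 and Adcy5 windows held none of these motifs, and the printed Prkaca window held the TGACG core on the reverse strand at 2 places, with first bases at -120 and -6 from the start. The window of the other Prkaca start (chr8:83976633-83976882) held none of the motifs. Over the 32851 windows of this length in the table, TGACG was found in 17.8%, TTCNNNGAA in 7.02%, TGACGTCA in 1.55% and the NF-kB-type motif in 1.41%. Among the 12 windows of the 5 measured genes that matched the table, the full TGACGTCA was found in 1, a window of Prkar1a, where its first base lies at -49 from the start at position 109650949 of chromosome 11. Its 30-base surroundings (chr11:109650889-109650918, plus strand) are shown because it is the only full match, with the element in capitals.
Prkar1a: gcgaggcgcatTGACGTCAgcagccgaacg
G and C made up 49.6% of the Grk5 window, 78.0% of that of Adcy5, and 68.8% of the printed and 50.8% of the other Prkaca window, against a median of 52.4% over the table. A match describes letters and not a bound site.

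Grk5, the receptor kinase, rose in both genotypes, by 2.81-fold in KO and 2.31-fold in WT hearts. Adcy5 and Prkaca, a cAMP-making enzyme and the PKA catalytic subunit alpha, fell in both. Gnai2, the alpha subunit of an inhibitory G protein, rose in KO hearts. In all, 4 of the 7 genes were called in KO hearts (2 higher, 2 lower), where 26.1% of all 18193 genes were called (11.4% higher, 14.7% lower). In WT hearts 3 of the 7 were called (1 higher, 2 lower), where 20.9% of all genes were (9.28% higher, 11.6% lower). A gene was called when its Benjamini-Hochberg adjusted p from limma, taken over the 18193 genes, was under 0.05. The median log2 change over the 7 genes was -0.27 in KO and -0.39 in WT hearts, against -0.02 and -0.00 over all genes. When the LPS effects of the 2 genotypes were averaged, 6 of the 7 were called, 2 higher and 4 lower, where 34.9% of all genes were called, 15.4% higher and 19.5% lower.

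**Figure D1:**
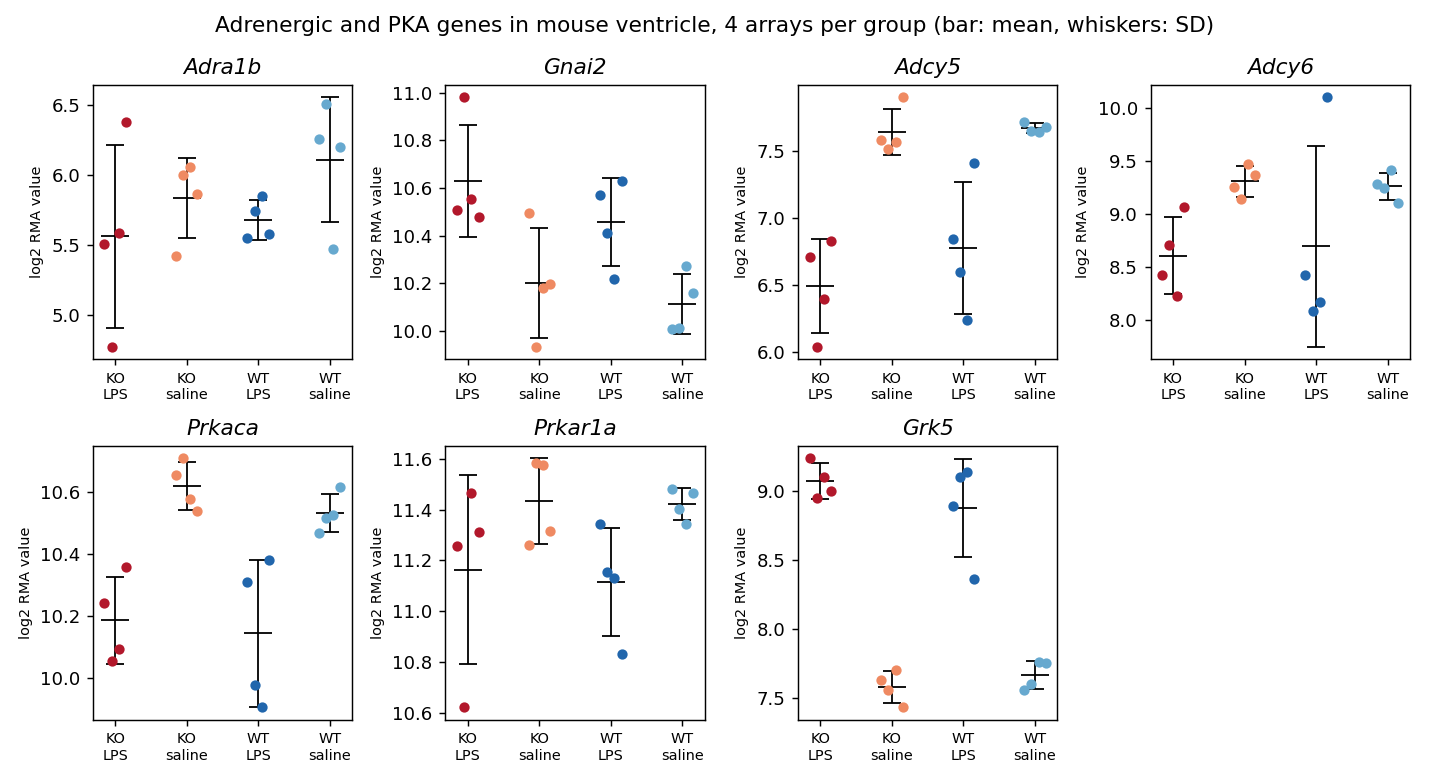
Log2 values of the 7 genes in each of the 16 arrays, with the group mean (bar) and SD (whiskers) over 4 arrays; each panel has its own vertical axis. Grk5 lies above all saline values in each LPS array, Adcy5 and Prkaca lie below them, and WT LPS array 4 stands far above its group for Adcy6.

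Adra1b, an alpha1-adrenergic receptor coupled to phospholipase C, was the only adrenergic receptor of the chosen set that was measured. Its log2 values were 4.77 to 6.38 in KO LPS hearts against 5.42 to 6.06 in KO saline hearts, and 5.55 to 5.85 in WT LPS hearts against 5.47 to 6.51 in WT saline hearts. The groups overlapped in both genotypes, and the spread was widest in the KO LPS arrays (SD 0.66). The LPS change was -0.27 ± 0.27 (limma standard error) in KO and -0.43 ± 0.27 in WT hearts, and neither passed (adjusted p = 0.515 and 0.311). The interval of the WT change ran from -0.996 to 0.14, so a fall of 2-fold lies near its edge. KO LPS arrays 2 and 4 decided the KO value, which was -0.01 without array 2 and -0.55 without array 4.

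Gnai2 restrains adenylyl cyclase when an inhibitory receptor is active. In KO LPS hearts its log2 values were 10.51, 10.98, 10.55 and 10.48, against 10.50, 9.93, 10.18 and 10.20 in KO saline hearts. In WT LPS hearts they were 10.57, 10.41, 10.22 and 10.63, against 10.01, 10.01, 10.27 and 10.16 in WT saline hearts. The LPS arrays were higher on average but overlapped saline in each genotype, through 1 high KO saline array and 1 low WT LPS array. Gnai2 rose by 0.43 ± 0.14 in KO hearts (adjusted p = 0.0260), whereas the WT change of 0.35 ± 0.14 did not pass (adjusted p = 0.0842). The KO call was lost without KO saline array 2 (0.34), 3 (0.42) or 4 (0.43) or KO LPS array 2 (0.31), where adjusted p ran from 0.0552 to 0.0975. It was also lost with only the KO groups fitted (0.43, adjusted p = 0.0519). The WT change passed without WT LPS array 3 (0.42, adjusted p = 0.0485) or KO LPS array 2 (0.35, adjusted p = 0.0383), and with array weights (0.33, adjusted p = 0.0356). The average over both genotypes was 0.39 ± 0.10 (adjusted p = 0.00398) and was called whichever array was left out.

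Adcy5 and Adcy6 are the main adenylyl cyclases of heart muscle cells. For Adcy5, KO LPS hearts had log2 values of 6.71, 6.04, 6.40 and 6.83, against 7.58, 7.52, 7.57 and 7.90 in KO saline hearts. WT LPS hearts had 6.84, 6.60, 6.24 and 7.41, against 7.72, 7.65, 7.64 and 7.68 in WT saline hearts. Every LPS array lay below every saline array of its genotype, which was so for 28.5% of all genes in KO and 22.8% in WT hearts, counting either direction. Adcy5 fell by 1.15 ± 0.20 in KO hearts (adjusted p = 0.000494) and by 0.90 ± 0.20 in WT hearts (adjusted p = 0.00417). Both calls held whichever array was left out, with changes of -1.26 to -0.998 and -1.11 to -0.72. The WT call was lost without WT saline arrays 1 and 4 together (-0.87, adjusted p = 0.0503), where the mean of 8 skeletal muscle markers was 7.57 and 8.83, against 5.63 to 6.07 in the other 14 arrays; its part in the result was not tested.

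The fall of Adcy5 rests on 1 of its 4 probe sets. The other 3, with means of 6.94, 4.43 and 3.61 over the 16 arrays against a median of 4.64 over all probe sets, changed by -0.11 to -0.07 in KO hearts and by -0.05 to -0.03 in WT hearts, and none was called. With all 4 averaged, the change was -0.35 in KO and -0.26 in WT hearts (adjusted p = 0.00409 and 0.0335). Which transcripts each probe set measures was not tested.

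For Adcy6, KO LPS hearts had log2 values of 8.42, 8.71, 8.22 and 9.06, against 9.25, 9.14, 9.47 and 9.37 in KO saline hearts. WT LPS hearts had 8.43, 8.08, 8.17 and 10.10, against 9.28, 9.24, 9.41 and 9.10 in WT saline hearts. The KO groups did not overlap, and in WT hearts 3 LPS arrays lay below all saline arrays while array 4 lay above them all. The LPS change was -0.70 ± 0.32 in KO and -0.56 ± 0.32 in WT hearts, and neither passed (adjusted p = 0.122 and 0.255). Without WT LPS array 4 both did, at -0.70 in KO (adjusted p = 0.00173) and -1.03 in WT hearts (adjusted p = 0.000136). The KO change itself was the same without that array, since only the spread, which all groups share, was smaller. Both changes also passed with array weights (-0.81 in KO, adjusted p = 0.00330, and -0.88 in WT hearts, adjusted p = 0.00194), and the KO change passed with only the KO groups fitted (-0.70, adjusted p = 0.0117). WT LPS array 4 had the highest mean of its group for 8 of the 11 marker lists, such as endothelium (8.81, against 7.61 to 8.03 in the other 3), macrophages (8.21, against 6.96 to 7.56), cardiomyocytes (13.80, against 13.64 to 13.68) and smooth muscle (8.57, against 7.75 to 8.24), and the lowest for neutrophils (6.29, against 6.63 to 6.95). The part of these in the Adcy6 value was not tested. The average over both genotypes was -0.63 ± 0.23 (adjusted p = 0.0376), but this call was kept in only 5 of the 16 fits that left out 1 array, those without WT saline array 4, WT LPS array 4, KO saline array 2 or KO LPS arrays 2 or 4, and adjusted p reached 0.0843 (without WT LPS array 2, -0.53).

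Prkaca encodes the catalytic subunit alpha of PKA, the form that carries most PKA activity in the heart. Its log2 values were 10.24, 10.06, 10.09 and 10.36 in KO LPS hearts, against 10.66, 10.71, 10.58 and 10.54 in KO saline hearts. They were 10.31, 9.98, 9.91 and 10.38 in WT LPS hearts, against 10.47, 10.52, 10.53 and 10.62 in WT saline hearts. The LPS arrays lay below all saline arrays in both genotypes. Prkaca fell by 0.43 ± 0.11 in KO hearts (1.35-fold, adjusted p = 0.00621) and by 0.39 ± 0.11 in WT hearts (1.31-fold, adjusted p = 0.0151). The WT call was lost without WT saline array 4 (-0.36, adjusted p = 0.0512), WT LPS array 2 (-0.33, 0.0560) or WT LPS array 3 (-0.31, 0.0605), and without WT saline arrays 1 and 4 together (-0.38, 0.110). The second probe set fell too, by 0.72 ± 0.18 in KO and 0.56 ± 0.18 in WT hearts (adjusted p = 0.00743 and 0.0388 over 34945 probe sets).

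Prkar1a encodes the regulatory subunit that holds the catalytic subunits inactive until cAMP binds. Its values were 10.62 to 11.47 in KO LPS against 11.26 to 11.58 in KO saline hearts, and 10.83 to 11.34 in WT LPS against 11.34 to 11.48 in WT saline hearts. The groups overlapped in KO hearts, and in WT hearts the highest LPS array reached the lowest saline array. The changes of -0.27 ± 0.15 in KO and -0.31 ± 0.15 in WT hearts did not pass (adjusted p = 0.216 and 0.175), though the WT change did without KO LPS array 2 (-0.31, adjusted p = 0.0389). The average over both genotypes was called narrowly lower (-0.29 ± 0.11, adjusted p = 0.0436). That call was kept in 5 of the 16 fits that left out 1 array, those without WT LPS array 1, KO saline arrays 1 or 4 or KO LPS arrays 3 or 4, and adjusted p reached 0.0872 (without KO saline array 2, -0.27). A second probe set, with a mean of 10.51, had an average change of 0.11 ± 0.11, opposite in sign and not called, and another was dim, with a mean of 3.37.

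Grk5 encodes a kinase that phosphorylates active adrenergic and other G protein-coupled receptors. Its log2 values were 9.24, 8.95, 9.11 and 9.001 in KO LPS hearts, against 7.63, 7.56, 7.70 and 7.43 in KO saline hearts. They were 8.90, 9.11, 9.14 and 8.37 in WT LPS hearts, against 7.56, 7.60, 7.76 and 7.75 in WT saline hearts. The LPS and saline arrays were far apart in both genotypes, with WT LPS array 4 the lowest of the LPS arrays. Grk5 rose by 1.49 ± 0.14 in KO hearts (adjusted p = 1.16e-06) and by 1.21 ± 0.14 in WT hearts (adjusted p = 1.29e-05). By p it ranked 177 of 18193 genes in KO and 304 in WT hearts. Leaving out any 1 array left it called, with rises of 1.44 to 1.53 in KO and 1.12 to 1.38 in WT hearts, and its second probe set rose by 1.15 ± 0.21 and 1.00 ± 0.21.

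**Figure D2:**
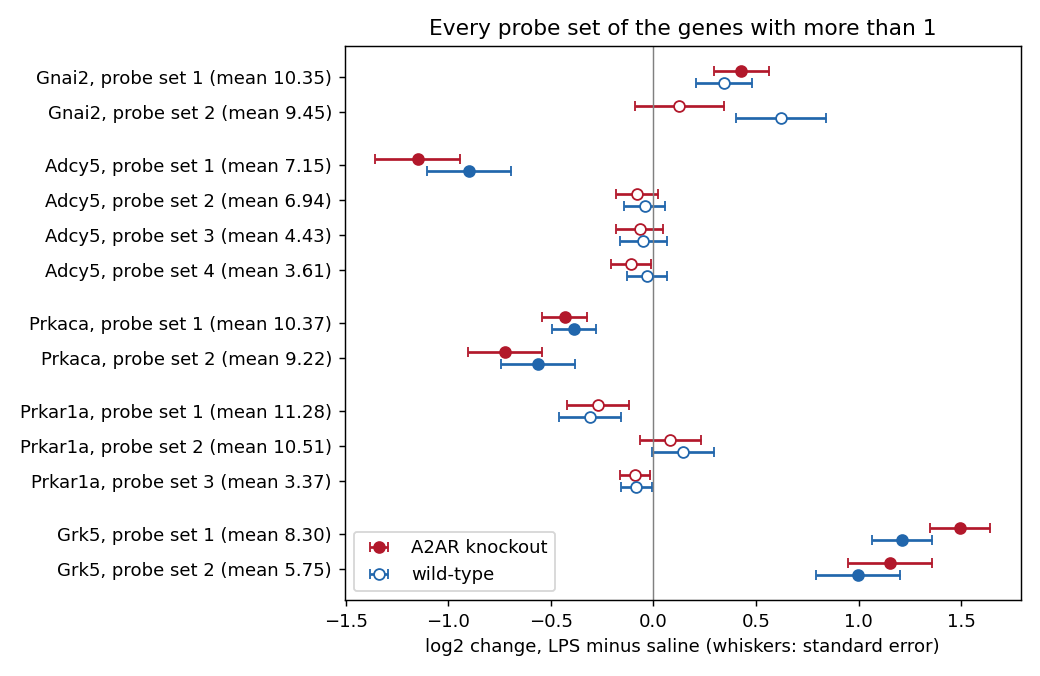
LPS minus saline log2 change (standard error) of each probe set of the 5 genes that have more than 1, numbered from the highest mean over 16 arrays down, in KO (red) and WT (blue) hearts; filled points have an adjusted p under 0.05 over 34945 probe sets. Both probe sets moved alike for Grk5 and for Prkaca, while only 1 of the 4 for Adcy5 moved.

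For Gnai2 the second probe set changed by 0.13 ± 0.22 in KO and by 0.62 ± 0.22 in WT hearts, and neither value passed (adjusted p = 0.752 and 0.0609). KO saline array 1, at 9.82, and WT LPS array 4, at 10.66, were the highest of their groups on it. The call of Gnai2 in KO hearts is therefore that of 1 probe set, and with both averaged the change was 0.28 in KO (adjusted p = 0.233) and 0.48 in WT hearts (adjusted p = 0.0416).

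The genes whose log2 values ran most like those of Grk5 over the 16 arrays were Socs3, a feedback inhibitor of cytokine signalling (Pearson r = 0.99), Irgm2, an interferon-induced GTPase (0.99), and C1s1, a complement protease (0.99). These arrays fall into LPS and saline clusters, so these values mostly describe a shared step between them. On deviations from the group means, which leave that step out, the nearest genes were Suco (r = 0.95), Yipf6 (0.95) and Ddx21 (0.94). These were picked as the highest r over all genes tested. Grk5 spread most in WT LPS hearts (SD 0.36, against 0.10 to 0.13 in the other groups), where array 4 was lowest at 8.37. The part of that array in these r values was not tested.

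Loss of the A2AR was set against wild-type for the same genes, as a test of whether this receptor's absence changed the adrenergic genes with or without endotoxin. None of the 7 was called after LPS, after saline or in the average of both, where limma called 0.00550% of all genes (1 gene each), and 0 of the 7 had an unadjusted p under 0.05 in any of these. Over all genes that share was 7.56% after LPS, 3.48% after saline and 5.15% in the average, so a count of 0 among 7 genes is near the background. The groups of 0 of the 7 were apart, against 2.26% of all genes after LPS and 3.89% after saline. After LPS the largest difference was that of Adcy5, -0.28 ± 0.20 (KO LPS mean 6.49 ± 0.35, WT LPS mean 6.77 ± 0.49; SD, n = 4; 95% interval of the difference -0.71 to 0.15). After saline it was that of Adra1b, -0.27 ± 0.27 (KO saline mean 5.84 ± 0.29, WT saline mean 6.11 ± 0.45; SD, n = 4; interval -0.84 to 0.29). The intervals differ widely in what they still allow. For Prkaca they ran from -0.19 to 0.27 after LPS and from -0.14 to 0.31 after saline, and for Adcy6 from -0.76 to 0.58 after LPS and from -0.63 to 0.72 after saline.

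The LPS responses of the 2 genotypes were compared directly as an interaction, the KO response minus the WT response. Limma called 0 of the 7 genes and 0 of all 18193, and at an unadjusted p under 0.05 there were 0 of the 7 and 4.47% of all genes. Grk5 had the smallest p among the 7, with a larger rise in KO hearts by 0.28 ± 0.20 (interval -0.15 to 0.71, adjusted p = 0.959). For Adcy5 the interaction was -0.25 ± 0.29 (interval -0.86 to 0.36), and for Prkaca -0.05 ± 0.15 (interval -0.37 to 0.28). Gnai2, called in KO and not in WT hearts, had an interaction of 0.08 ± 0.19 (interval -0.32 to 0.49), so its responses are not shown to differ.

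**Figure D3:**
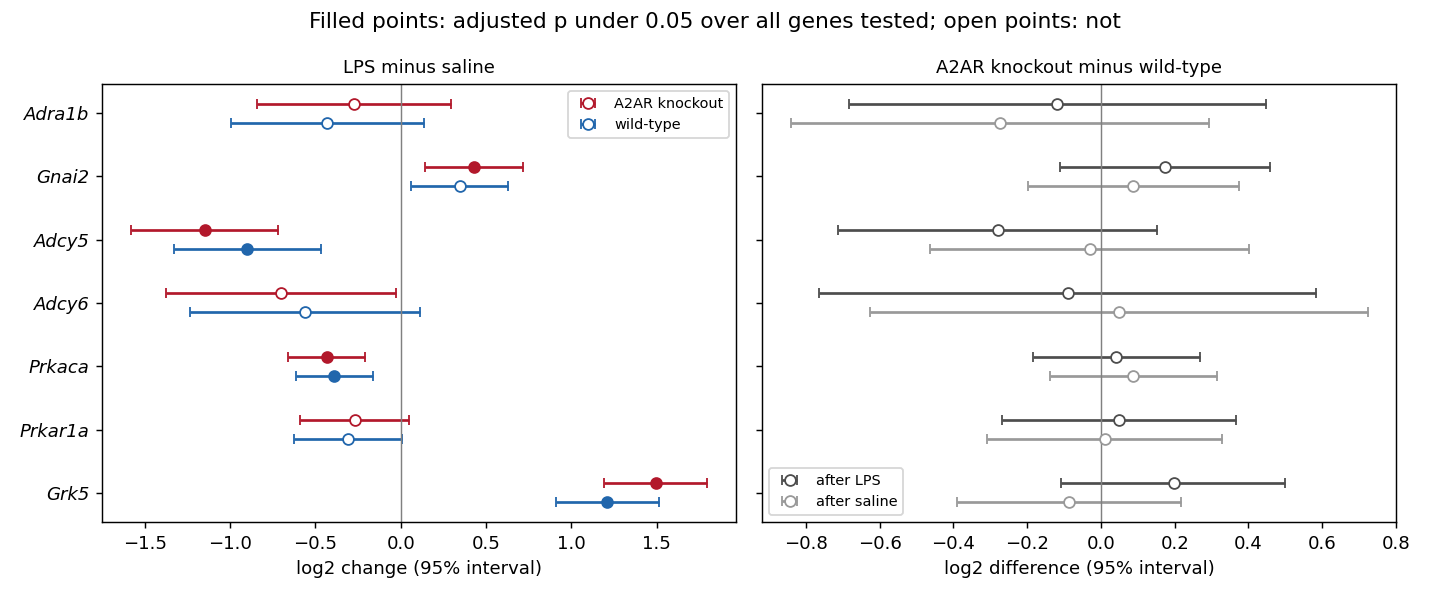
Left, LPS minus saline log2 change of the 7 genes with 95% limma intervals in KO (red) and WT (blue) hearts; right, KO minus WT log2 difference after LPS (dark) and after saline (light). Filled points have an adjusted p under 0.05 over 18193 genes: 4 in KO and 3 in WT hearts on the left, and 0 on the right.

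The other genes of the pathway were taken by role, and 65 of 75 listed were measured. Each was read from its probe set with the highest mean, and their other probe sets were not compared gene by gene. In KO hearts 24 of the 65 were called, 3 higher and 21 lower, against backgrounds of 11.4% higher and 14.7% lower over all genes. In WT hearts 19 were called, 1 higher and 18 lower, against 9.28% and 11.6%. Lower in both genotypes were 14 genes, out of 21 lower in KO and 18 lower in WT. Over all genes 1674 were lower in both, out of 2669 in KO and 2109 in WT, so the overlap of the pathway genes is near the background. Calls in opposite directions numbered 0 among the 65 and 0 among all genes. The median log2 change of the 65 was -0.13 in KO and -0.17 in WT hearts. Of the calls, 18 of 24 in KO and 17 of 19 in WT hearts held whichever array was left out; the exceptions among genes named are given beside their values.

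Among G proteins, 1 of 8 was lower in KO and 2 of 8 in WT hearts, where 14.7% and 11.6% of all genes were called lower. Counts over so few genes are not read here as a result about a role. Gnas, the stimulatory alpha subunit that drives adenylyl cyclase, fell by 0.29 ± 0.06 in KO and 0.33 ± 0.06 in WT hearts (adjusted p = 0.00269 and 0.00124). Gnaq, which couples alpha1 receptors to phospholipase C, fell in WT hearts by 0.51 ± 0.14, a call lost without WT saline array 3 or WT LPS array 3 (adjusted p up to 0.0573), and had a KO change of -0.29 ± 0.14. Gnao1 had changes of -0.51 ± 0.29 and -0.72 ± 0.29 that did not pass. Its WT change passed only without WT LPS array 4 (-1.07, adjusted p = 0.0016). Among the other cyclases, 3 of 8 fell in KO and 1 of 8 in WT hearts, against the same shares of all genes. Adcy7 showed the largest change of these 8 in both, with KO LPS values of 6.11, 6.04, 6.21 and 6.03 against KO saline values of 7.44, 7.26, 7.14 and 7.09. In WT LPS hearts Adcy7 stood at 5.80, 5.90, 5.03 and 6.54, against 7.22, 7.40, 7.38 and 7.31 in WT saline hearts. The groups were apart in each genotype, and Adcy7 fell by 1.13 ± 0.21 and 1.51 ± 0.21 (adjusted p = 0.000682 and 6.20e-05). Adcy1 fell by 0.97 ± 0.26 in KO hearts (adjusted p = 0.00919) and had a WT change of -0.69 ± 0.26 (adjusted p = 0.0681). That WT change passed without WT LPS array 4 (-0.98) or without WT saline array 1, with adjusted p as low as 0.00169.

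Most called PKA genes were lower. Of 7 further PKA subunits and inhibitors, 3 fell in KO hearts, and 4 fell and 1 rose in WT hearts. Over all genes 14.7% were called lower in KO hearts, and 11.6% lower and 9.28% higher in WT hearts. Pkia encodes a protein that inhibits free catalytic subunits. Its values were 8.99, 7.84, 8.91 and 9.21 in KO LPS hearts against 9.81, 10.11, 10.09 and 10.10 in KO saline hearts, and 9.13, 8.91, 8.57 and 8.53 in WT LPS hearts against 10.18, 10.15, 9.96 and 10.12 in WT saline hearts. The LPS arrays were below all saline arrays, and the falls were 1.29 ± 0.22 and 1.32 ± 0.22 (adjusted p = 0.000356 and 0.000368). The regulatory subunit gene Prkar2a fell by 0.42 ± 0.08 and 0.51 ± 0.08, and the second catalytic subunit gene, Prkacb, by 0.31 ± 0.10 and 0.56 ± 0.10. The KO call of Prkacb was lost without KO saline array 1, 3 or 4 or KO LPS array 1 or 3 (adjusted p up to 0.0939). Pkig, another inhibitor of the catalytic subunit, rose by 0.40 ± 0.09 in WT hearts (adjusted p = 0.00530) and had a KO change of 0.16 ± 0.09 (adjusted p = 0.255).

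Of 10 genes for anchoring proteins, which tether PKA near its targets, 3 fell in KO and 4 in WT hearts. The shares of all genes called lower were 14.7% and 11.6%. Akap6, which places PKA at the nuclear envelope and sarcoplasmic reticulum of muscle cells, fell by 0.79 ± 0.12 and 0.92 ± 0.12 (adjusted p = 9.07e-05 and 2.60e-05), and Akap1, the mitochondrial anchor, by 0.79 ± 0.19 and 0.77 ± 0.19. Akap12 had the largest average change of the 10 but was not called, at 1.21 ± 0.66 in KO and 0.68 ± 0.66 in WT hearts. Its LPS arrays were scattered, at 11.49, 11.96, 10.15 and 8.78 in KO LPS against 9.17 to 9.59 in KO saline hearts, and at 9.70, 11.22, 11.66 and 8.04 in WT LPS against 9.31 to 9.59 in WT saline hearts. In each genotype LPS array 4 lay below all saline arrays while the other 3 lay above them. Without KO LPS array 4 the KO change was 1.81 (adjusted p = 0.0368), and without WT LPS array 4 the WT change was 1.38, which did not pass.

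Of 4 genes that brake G proteins, 3 fell in each genotype, where 14.7% of all genes were called lower in KO and 11.6% in WT hearts. Rgs2, which acts mainly on the G protein of alpha1 receptors, fell by 0.90 ± 0.17 in KO and 0.86 ± 0.17 in WT hearts, Rgs4 by 0.67 ± 0.13 and 0.82 ± 0.13, and Rgs5 by 0.81 ± 0.14 and 0.98 ± 0.14. Rgs5 is also 1 of the 7 smooth muscle and pericyte markers, of which 5 fell in each genotype, with list means of 8.24 to 8.58 in KO LPS against 8.99 to 9.45 in KO saline hearts and 7.75 to 8.57 in WT LPS against 9.17 to 9.54 in WT saline hearts; the part of that shift in its fall was not tested. Of 6 effectors of alpha1 receptors, 2 fell in both genotypes, against those shares of all genes. Another 1 rose in KO hearts, where 11.4% of all genes were called higher. Plcb1, a phospholipase C, fell by 1.58 ± 0.20 in KO and 1.13 ± 0.20 in WT hearts, and its LPS means of 4.78 and 4.88 were close to the array median. Whether such a signal limits the size of its fall was not tested. Prkca, protein kinase C alpha, fell by 1.09 ± 0.14 and 0.77 ± 0.14. Prkcd, protein kinase C delta, rose in KO hearts by 0.49 (adjusted p = 0.0111) and had a WT change of 0.30 (adjusted p = 0.133). Its average over both genotypes was called higher (0.39, adjusted p = 0.00305).

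PKA substrates of the heart muscle cell fell for 5 of 6 genes in KO and 2 of 6 in WT hearts. Over all genes 14.7% and 11.6% were called lower. Mybpc3, which encodes cardiac myosin-binding protein C, fell by 0.49 ± 0.11 and 0.59 ± 0.11 (adjusted p = 0.00273 and 0.000811). Pln, phospholamban, the brake on the calcium pump, fell by 0.85 ± 0.29 in KO hearts, a value set largely by KO LPS array 2 (11.69, against 13.07 to 13.73 in the other 3). Without that array the fall was 0.42, and the call was lost without KO saline array 2, 3 or 4 or KO LPS array 1. Its WT change was -0.23 ± 0.29 (adjusted p = 0.668). Pln, Ryr2 and Tnni3 are also in the cardiomyocyte marker list, whose level fell as given above. Each was called lower in KO hearts, and Tnni3 in WT hearts too. The fall of that list is therefore in part their own and not a separate observation.

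Genes downstream of cAMP moved both ways after LPS. Of 8 other effectors and nuclear targets, 2 rose in KO hearts and 0 passed in WT hearts, where 11.4% and 9.28% of all genes were called higher. In the average over both genotypes 4 were higher, and 1, Creb1, was lower (-0.54, adjusted p = 0.010). Over all genes 15.4% were higher and 19.5% lower in that average. Of the 4 higher calls, that of Popdc2 was lost in 8 of the 16 fits that left out 1 array, Rapgef3 in 7 and Crtc2 in 3. The average calls of Crem and Creb1 held in all 16. Rapgef3, which encodes Epac1, a cAMP sensor separate from PKA, rose by 1.02 ± 0.28 in KO hearts (adjusted p = 0.0129) and had a WT change of 0.18 ± 0.28 (adjusted p = 0.731). Crem, whose products include the cAMP-induced repressor ICER, rose by 0.73 ± 0.26 in KO hearts (adjusted p = 0.0441), a call lost in 8 of the 16 fits that left out 1 array (adjusted p up to 0.149), and had a WT change of 0.65 ± 0.26 (adjusted p = 0.0854). The interaction was not called for any of the 65 genes, and 1 of them had an unadjusted p under 0.05. Of 5 receptor kinases and arrestins other than Grk5, 0 were called in either genotype by limma. Over all genes 26.1% were called in KO and 20.9% in WT hearts. The 1 further adrenergic receptor measured, Adra2c, had changes of -0.08 in KO and 0.04 in WT hearts and was not called. Of the 2 enzymes that break down catecholamines, Maoa fell in KO hearts by 0.38 ± 0.13 (adjusted p = 0.0344, lost in 6 of the 16 fits, adjusted p up to 0.0939), and Maob had a KO change of -0.56 ± 0.20 (adjusted p = 0.0515).

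**Figure D4:**
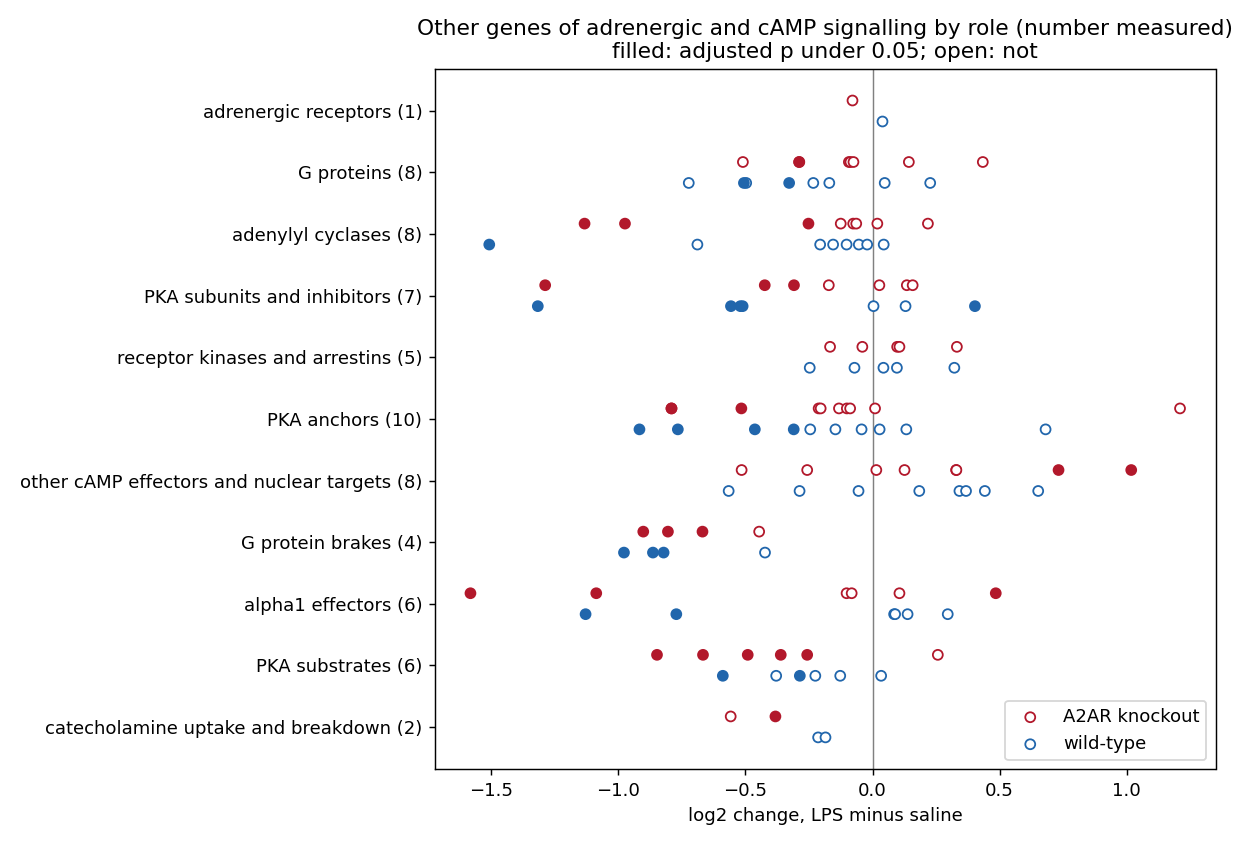
LPS minus saline log2 change of 65 other pathway genes, 1 point per gene and genotype (KO red, WT blue), grouped by role with the number measured; filled points have an adjusted p under 0.05 over 18193 genes. Most filled points lie left of 0, with 21 lower and 3 higher in KO and 18 lower and 1 higher in WT hearts.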

How the data were processed

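Mouse ventricular RNA was measured on 16 arrays. The authors deposited 45101 log2 values per array, made with RMA per the submitters' processing notes, with no version in those notes. Of the probe sets, 34945 carried a single symbol, 932 several and 9160 none here, and 64 control probe sets were left out. Symbols were updated by Entrez identifier through RefSeq (GRCm38.p6; 34741 matched).

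Limma 3.58.1 (R 4.3.3) fitted 4 group means to the 16 arrays for 18193 genes, moderating each variance by a trend on expression (12 residual degrees of freedom). Tests are two-sided, adjusted by Benjamini-Hochberg over all genes, and called under 0.05. The script was tested on simulated data. Precision is limited by the number of arrays, since arrays have no depth.

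The members, lists and tests were chosen with earlier results of these data known. All measured members are named; of the other pathway genes, called ones may be named, and the 2 with the largest average LPS change in each role with a call always are. Alternatives were the probe set summary, variance moderation, array weights, a filter on dim genes, median centring, only the groups compared, a replicate block, and leaving out arrays. No batch is given in the labels. Between same-numbered arrays, r of the deviations from group means ran from -0.27 to 0.33. It was highest for array 4 of the KO LPS and WT LPS groups. The main fit did not pair samples by number, and whether same-numbered arrays shared a run or day was not tested.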

Additional observations from a re-analysis of the deposited data

Results flagged for a closer look

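Of 28 sets of 4 arrays (7 genes in 4 groups), 2 held an array far from the other 3, where chance flags about 1 in 20. For Adcy6 in WT LPS hearts, array 4 stood at 10.10 against 8.08 to 8.43. For Gnai2 in KO LPS hearts, array 2 stood at 10.98 against 10.48 to 10.55.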

How the results depend on the processing

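With 1 choice changed at a time, the Grk5 rises and the KO falls of Adcy5 and Prkaca kept their direction and call in every setting run. Every setting held the Adcy5 probe set that fell, alone or in the average of all its probe sets. These settings therefore could not test whether the Adcy5 fall depends on that probe set. The number of the 7 genes called in WT hearts (3) was 5 with array weights and 1 without WT saline arrays 1 and 4 together; leaving out 1 array gave 2 to 5, and 5 without KO LPS array 2. In KO hearts (4) leaving out 1 array gave 3 to 5, and in the average (6) 4 to 7. Of 1204 recomputed log2 changes, 38 lost and 11 gained a call. In 45 the sign changed, all in knockout against wild-type comparisons or the interaction, where 0 passed the threshold, and 0 in the LPS comparisons. Adra1b passed in the average only without KO LPS array 4 (-0.49, adjusted p = 0.0249). Counts of the other 65 genes were 17 to 28 in WT (19), 19 to 28 in KO (24) and 30 to 39 in the average (34) when 1 array was left out. With the replicate block, 3 genes were called in WT, 4 in KO and 5 in the average, since Prkar1a was lost there (adjusted p = 0.0577). No comparison had r above 0.1 in every same-numbered pair of arrays. The cause of these changes was not tested. Whether signals near the array median limit the size of changes of dim genes was not tested.

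The values whose sign changed were these, with the range when 1 array was left out. After LPS, KO minus WT was -0.293 to 0.378 for Adcy6 (0.148 with array weights), -0.391 to 0.145 for Adra1b, -0.037 to 0.121 for Prkaca and -0.052 to 0.230 for Prkar1a. With all probe sets averaged it was -0.050 for Gnai2 and -0.004 for Prkaca. After saline, KO minus WT was -0.116 to 0.012 for Adcy5 (0.016 with all probe sets averaged), -0.006 to 0.106 for Adcy6 (-0.019 without WT saline arrays 1 and 4), -0.010 to 0.178 for Gnai2 and -0.040 to 0.068 for Prkar1a. The average over both treatments was -0.122 to 0.214 for Adcy6 (0.115 with array weights), -0.030 to 0.10 for Grk5 and -0.021 to 0.120 for Prkar1a. The interaction was -0.343 to 0.329 for Adcy6 (0.066 with array weights), -0.117 to 0.418 for Adra1b, -0.033 to 0.183 for Gnai2 (-0.206 with all probe sets averaged), -0.125 to 0.034 for Prkaca (0.020 with array weights) and -0.062 to 0.220 for Prkar1a (-0.010 with all probe sets averaged, and -0.010 without WT saline arrays 1 and 4).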
